A study of Mus musculus with 4 samples.

Results

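The genes described here are the ligands of the vascular endothelial growth factor (VEGF) family and the genes whose products process VEGF-C. They were taken by name, 10 of the 18619 genes in the file: the ligands Vegfa, Vegfb, Vegfc, Vegfd and Pgf, the scaffold Ccbe1, the proteases Adamts3 and Adamts14, and the proprotein convertases Furin and Pcsk5. The question was which stromal cells of the mouse intestine hold ligand and processing genes together, in the same cluster and in the same cell.

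The cells came from 1 library, LATS1/2 KO 1w, of a series of 4 samples in 3 groups. The mice were adult C57BL/6J carrying Pdgfrb-CreERT2, a tdTomato reporter and floxed Lats1 and Lats2, and were taken 1 week after tamoxifen. LATS1 and LATS2 are the kinases that hold the coactivators YAP and TAZ in check. Cre was driven by Pdgfrb, so deletion and reporter were both limited to cells of that lineage, and tdTomato+ cells were sorted before capture in droplets. The 2 WT libraries and LATS1/2 KO 2w were not analysed here, so no value below compares knockout with control. Pdgfrb was detected in 100% of the cells. Lats1 (656 UMIs) and Lats2 (2466 UMIs) were still read, but a tag at the 3-prime end does not report on the floxed exons.

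VEGF-A acts mainly on blood vessels through VEGFR2, while VEGF-B and placental growth factor, the product of Pgf, bind VEGFR1. VEGF-C and VEGF-D act on lymphatic vessels through VEGFR3, and in the intestine VEGF-C maintains the lacteals, the lymphatic capillaries of the villi. VEGF-C is made as a precursor. Convertases such as furin and PC5 (Pcsk5) cut it inside the cell, and ADAMTS3 or ADAMTS14, held in place by CCBE1, then removes its N-terminal propeptide outside, which activates it. A cell can therefore hold the ligand without the means to activate it.

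Vegfc lies at chr8:54077606-54187096 on the plus strand of GRCm38 and Vegfd at chrX:164373378-164402650 on the plus strand. Their promoter sequences from RefSeq (GRCm38.p6) are shown because these are the lymphatic ligands of the family, and they were highest in different clusters. Each runs 5′ to 3′ and stops before the start of the gene in both annotations used. Capitals mark GGAAT on either strand (ATTCC when read on the other), the core that TEAD factors, the DNA-binding partners of YAP and TAZ, recognise. The first window is chr8:54077282-54077531 and the second chrX:164373272-164373377.
Vegfc: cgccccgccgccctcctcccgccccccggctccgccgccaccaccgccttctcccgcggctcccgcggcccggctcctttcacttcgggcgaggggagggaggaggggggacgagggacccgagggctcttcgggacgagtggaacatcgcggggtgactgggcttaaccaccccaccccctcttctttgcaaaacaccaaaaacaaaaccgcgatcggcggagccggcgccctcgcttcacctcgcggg
Vegfd: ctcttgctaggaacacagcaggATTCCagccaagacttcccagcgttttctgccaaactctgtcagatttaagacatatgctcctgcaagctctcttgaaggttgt

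The Vegfc window was 71.6% G or C and had no match, whereas the shorter Vegfd window was 47.2% G or C and had 1. Over the 250 bases before each RefSeq start, 9 of the 10 genes had 12 windows, of which 3 held GGAAT on either strand (Vegfa, Vegfd and Pcsk5), against 34.2% of all 32851 mouse windows of that length. None of the 12 held the AP-1 letters TGANTCA, which 6.75% of all windows did. A match describes letters only, and no match says nothing of the factor. For Vegfc, the authors report several GGAAT sequences in a longer promoter region. In mouse embryonic fibroblasts they found TEAD bound further upstream than the window shown here.

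The 4108 cells carried 46054627 unique molecular identifiers (UMIs, each 1 captured transcript), with a median of 10726 a cell and a range from 1965 to 35727. They fell into 10 clusters, built without the 10 genes among the clustering genes. Levels are UMIs of a gene per 1000000 UMIs of the cluster (counts per 1000000, CPM), with 95% intervals for counting error only. Cells of 1 library are not replicates, so no test between clusters was possible, and a ratio is described by whether its interval leaves 1. Levels are compared between clusters and never between genes, since 3-prime tags differ in capture from gene to gene.

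Of the clusters, 2 met the naming rule. The FB4-like cluster (694 cells) had all 4 FB4 markers, including Ackr4 in 91.5% and Grem1 in 93.4% of its cells, and the SMC-like cluster (76 cells) all 6 markers of smooth muscle. The SMC-like cluster also had 4371 CPM summed over the 4 markers of the villus fibroblasts vFB1-2, near clusters 1 (4504) and 2 (4223). In the FB4-like cluster and cluster 9 these summed to 623 and 633. The source of this fibroblast signal in the SMC-like cluster was not tested. The other 8 are called by number. Cluster 10, the smallest at 45 cells, was high in all 5 markers of the villus fibroblast vFB3, with P2rx1 in 100% and Mmp10 in 93.3% of its cells, but was not named because Plvap, an endothelial marker, stood among its leading genes at 488 CPM. Its other 3 blood endothelial markers, Pecam1, Cdh5 and Kdr, were at 0 UMIs, and so were the 4 lymphatic ones. Clusters 2 (726 cells) and 6 (374 cells) shared Mmp10 (11.7% and 21.7% of cells) and Fhl2 (82.6% and 85.03%) with it at lower levels. Itga8 also counted as a marker in cluster 2 (12.8% of cells) but not in cluster 6 (8.56%). P2rx1 was in 6.61% and 9.63% of their cells, and Tacr1 in at most 0.138%. Fhl2 was not specific, being in 87.3% of the cells of cluster 7 and 81.6% of the SMC-like cluster. Cluster 7 (205 cells) had all 6 FB5 markers, with the mural genes Kcnj8 and Abcc9 among its leading genes, and cluster 9 (69 cells) all 7 mural cell markers. Clusters 1, 4 and 5 (730, 658 and 531 cells) had 2 markers of their nearest list each. These lists were FB4 for cluster 1 (Grem1 and Cilp), mural cells for cluster 4 (Rgs5 and Notch3) and vFB1-2, other villus fibroblasts, for cluster 5. In cluster 4 the mural markers Vtn, Kcnj8, Abcc9 and Mcam were each in at most 1.67% of cells. Cspg4 was in 16.4% (18.5 CPM, against 18.9 in cluster 1), and Rgs5 was higher in cluster 5 (880 against 782 CPM). All 4 vFB1-2 markers were in at least 10% of the cells of cluster 4, as in clusters 5 and 9 and the FB4-like cluster. Adamdec1, a vFB1-2 marker, was found in 100% of the cells of clusters 1, 4 and 6, 99.8% of cluster 5 and 99.7% of cluster 2. It thus did not set clusters 2 and 6 apart from clusters 1, 4 and 5. The 7 immediate early genes, which also respond to cell dissociation, summed to between 491 CPM in cluster 2 and 9473 in cluster 5.

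Each of the 10 genes was detected, from 114 UMIs of Adamts3 to 8558 of Pcsk5. Cluster 10 had the highest level of 3 of them, Vegfa, Vegfc and Ccbe1, where it had the highest level of 21.7% of the 12385 genes with at least 50 UMIs, a share near that of the members. In this cluster 4 of the 10 stood at 2 times the level of all other cells or more (these 3 and Adamts3, the last on 3 UMIs), where 8.99% of these genes did, and 3 of the 10 at 0.5 times or less (Vegfd, Pgf and Pcsk5), where 18.1% of the genes did. Cluster 4 had 2 at 2 times or more (Vegfc and Ccbe1, 1.28% of genes) and Pgf at 0.5 times or less (4.09%). Cluster 2 had Vegfc at 2 times or more (1.06%) and Vegfa and Pgf at 0.5 times or less (7.67%). Ligand and scaffold thus passed 2 times together in clusters 10 and 4, and Vegfc without Ccbe1 in cluster 2.

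Cluster 1 had Pgf at 2 times or more (0.565% of genes) and Vegfc and Ccbe1 at 0.5 times or less (5.17%). Clusters 5 and 6 had no member at 2 times or more (2.29% and 2.74% of genes), with Vegfc at 0.5 times or less in cluster 5 (4.45%) and Vegfc, Vegfd and Ccbe1 in cluster 6 (6.0%). Cluster 7 had Vegfa at 2 times or more (6.31%) and Vegfc, Vegfd, Ccbe1 and Pcsk5 at 0.5 times or less (13.4%). In the SMC-like cluster Vegfb and Adamts3 were at 2 times or more (7.51%) and Vegfd and Pgf at 0.5 times or less (14.9%), and in cluster 9 Vegfa and Adamts3 (10.2%) against Vegfd and Pcsk5 (16.8%). With 10 members, a count of 1 or 2 in the SMC-like cluster and cluster 9 was near the share of all genes.

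**Figure D1:**
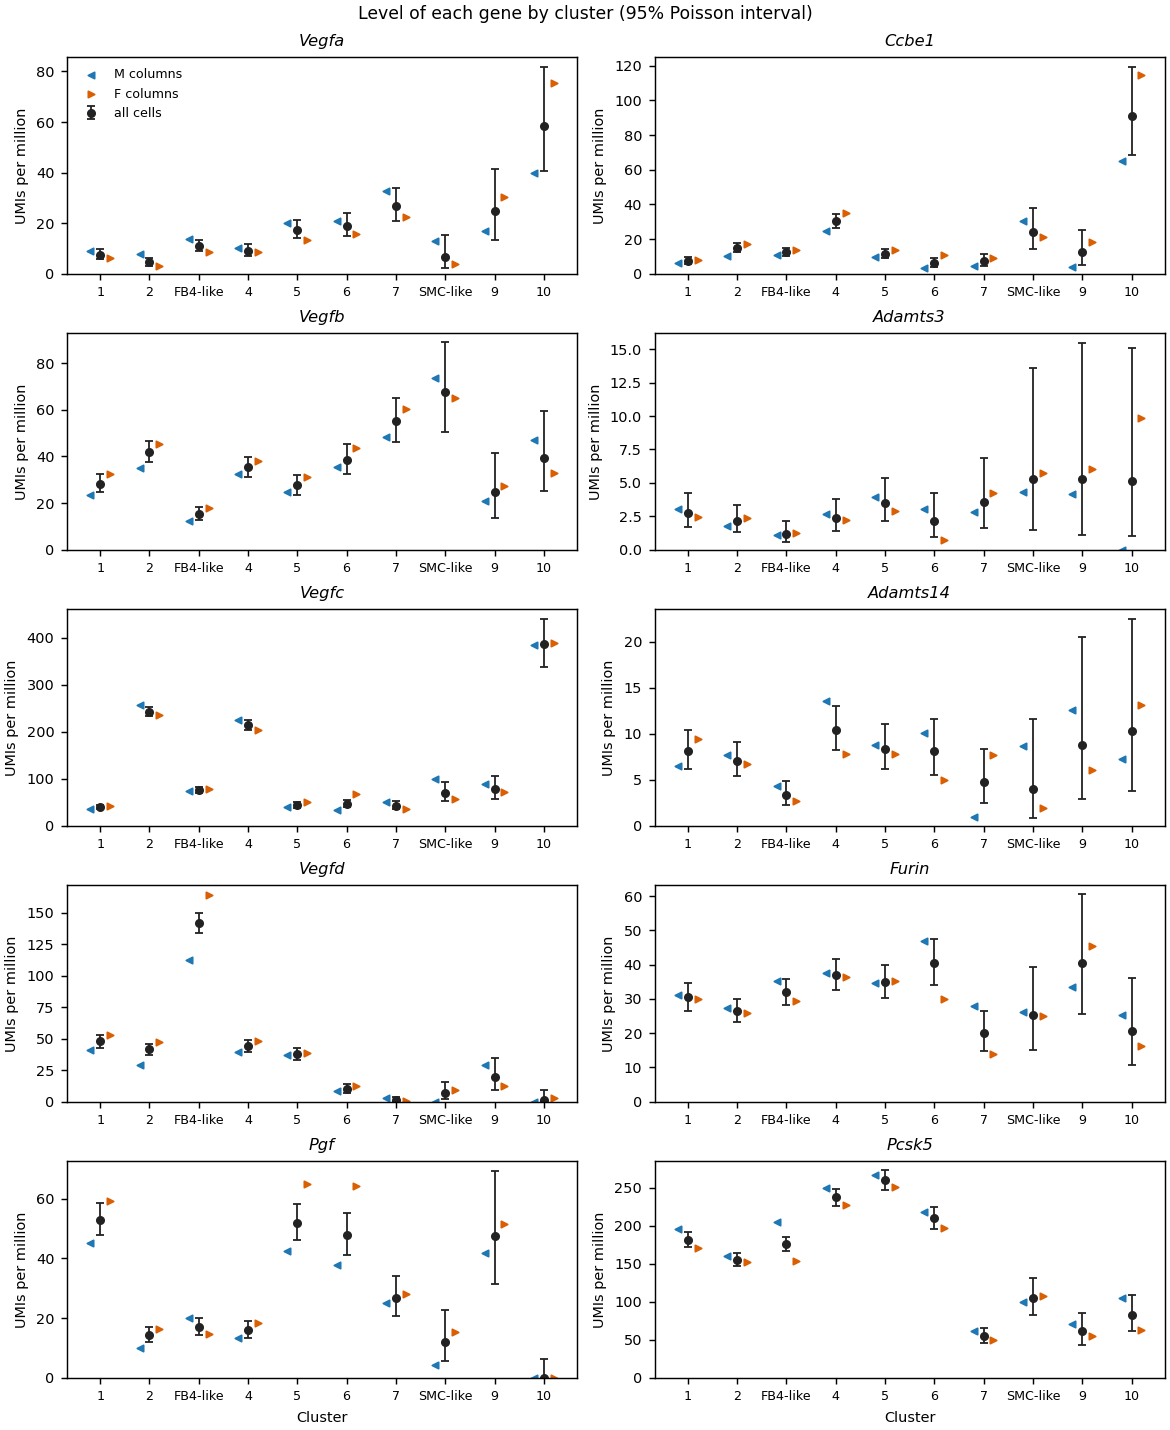
Level of the 10 genes in each cluster in CPM (vertical axes start at 0). Circles are all cells with 95% Poisson intervals, and triangles the columns marked M and F, a split of the same library by Xist. Vegfc and Ccbe1 are highest in cluster 10 and Vegfd in the FB4-like cluster, where cluster 10 has 1 Vegfd UMI and no Pgf UMI.

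Ccbe1, the scaffold that brings the protease to VEGF-C, was at 91.2 CPM (68.3 to 119) in cluster 10, from 53 UMIs, or 6.38 times all other cells (4.73 to 8.45). In the 67 cells gated on vFB3 markers alone, 32 of them from cluster 10, it was at 46.3 CPM (32.4 to 64.1) and 3.14 times. Cluster 4 followed at 30.5 (26.7 to 34.7), the SMC-like cluster at 23.9 (14.2 to 37.8) and cluster 2 at 14.8 (12.4 to 17.6). The 6 other clusters lay between 5.97 in cluster 6 and 12.4 in the FB4-like cluster. Cluster 10 exceeded cluster 4 by 2.99 times (2.17 to 4.04), and the step from cluster 4 to the SMC-like cluster was within counting error. Counted apart, the order of clusters 10, 4 and 2 was the same among the columns marked M (65.3, 24.8 and 10.2) as among those marked F (114.6, 35.3 and 17.0).

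Vegfc, the ligand that CCBE1 serves, was at 387 CPM in cluster 10, 243 in cluster 2 and 214 in cluster 4, and at no more than 79.2 in the other 7. Clusters 10 and 4 were thus high in ligand and scaffold, while Ccbe1 in cluster 2 was 0.963 times that of all other cells (0.790 to 1.17). Vegfc in cluster 4 was 0.880 times that of cluster 2 (0.824 to 0.939), while Ccbe1 was 2.06 times as high in cluster 4 (1.66 to 2.58), Pcsk5 1.53 times (1.42 to 1.64), Furin 1.40 times (1.17 to 1.67) and Adamts14 1.47 times (1.04 to 2.09). For Adamts3 the interval held 1 (1.11, 0.549 to 2.23). At a finer clustering resolution, where 503 cells of cluster 4 made a cluster of 534 and 147 others joined one of 345, Furin (30.4, 26.2 to 35.1) and Adamts14 (8.42, 6.29 to 11.04) in the cluster of 534 were no longer set apart from those of a cluster of 321 cells from cluster 2 (27.1, 22.3 to 32.6, and 8.72, 6.10 to 12.1). The cluster of 345 cells, which also held 178 cells of cluster 6, had the most of both (53.7, 46.3 to 61.9, and 16.0, 12.1 to 20.8), and a cluster of 376 cells, 370 of them from cluster 2, had 26.5 of Furin and 4.64 of Adamts14 (2.84 to 7.17). At the resolution used otherwise, the ratios of cluster 4 over cluster 2 for Ccbe1, Pcsk5, Furin and Adamts14 were all above 1 in the M and in the F columns, with the interval for Adamts14 in the F columns from 0.701 to 1.88. The immediate early genes also differed between these clusters, with Fos at 1836 CPM in cluster 4 and 106 in cluster 2, and their part in the difference was not tested.

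At the same finer resolution, 318 cells of cluster 2 made up nearly all of that cluster of 321 cells, which had 4 of the 5 vFB3 markers. These cells had 268 CPM of Vegfc (252 to 284) and 10.9 of Ccbe1 (7.95 to 14.6) and 4.84 of Vegfd (2.96 to 7.48). The cluster of 376 cells had 207 of Vegfc, 18.8 of Ccbe1 and 81.5 of Vegfd. Groups of cells where most vFB3 markers counted by the naming rule thus differed. Vegfc and Ccbe1 were both high in cluster 10, while this group from cluster 2 had high Vegfc and low Ccbe1. Another cluster of 189 cells with 4 of the 5 markers, 182 of them from cluster 6, was low in both at 49.3 and 3.56.

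The protease genes were sparse. Adamts3, which codes for the main VEGF-C protease, had between 3 and 20 UMIs in any cluster and levels from 1.16 CPM in the FB4-like cluster to 5.31 in the SMC-like cluster. Neighbours in this order were within counting error. Adamts14, a close relative with the same cut, lay between 3.37 in the FB4-like cluster and 10.4 in cluster 4, which was 1.58 times all other cells (1.21 to 2.04). The interval held 1 in 4 of 9 other settings, among them the F columns alone (1.23, 0.808 to 1.82). The FB4-like cluster was the lowest for both, at 0.418 times the other cells for Adamts3 (0.195 to 0.7996) and 0.416 times for Adamts14 (0.274 to 0.610), together with Vegfb the members at 0.5 times or less there (7.83% of genes). Adamts2, a procollagen protease of the same family that was read for comparison, was instead highest in the FB4-like cluster at 206 CPM. Its step to cluster 6 was within counting error (1.04 times, 0.956 to 1.14).

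The convertases followed another order. Furin ran from 20.0 CPM in cluster 7 to 40.5 in cluster 9. Neighbours in this order were within counting error, but cluster 7 was at 0.618 times all other cells (0.457 to 0.819), cluster 6 at 1.31 times (1.10 to 1.55) and cluster 4 at 1.20 times (1.05 to 1.37). In cluster 6 Furin was at 46.8 CPM in the M and 29.98 in the F columns, against 34.4 and 29.5 in the library. Pcsk5 was highest in cluster 5 at 260 (247 to 274), followed by cluster 4 at 237, cluster 6 at 210, cluster 1 at 182, the FB4-like cluster at 176 and cluster 2 at 155. The SMC-like cluster (105), cluster 10 (82.6), cluster 9 (61.6) and cluster 7 (54.8) made a low group below them. Cluster 10, first in Vegfc and Ccbe1, had 0.441 times the Pcsk5 of all other cells (0.325 to 0.586) and 0.348 times that of cluster 4 (0.256 to 0.463). Of the related convertases, Pcsk6 was highest in cluster 7 at 213 CPM, 2.85 times the next cluster (2.46 to 3.31) and where Pcsk5 was lowest, and lowest in cluster 10 at 20.6. Pcsk7 lay between 10.3 in cluster 10 and 29.2 in the SMC-like cluster.

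The ligands were spread over different clusters. Vegfd, the second lymphatic ligand, had 48.1% of its UMIs in the FB4-like cluster, which held 18.7% of all UMIs, at 142 CPM against 47.8 in the next cluster (2.97 times, 2.63 to 3.35). Here 3.78% of genes were at 2 times the other cells or more, and Vegfd was the only member. In cluster 7 (1.60, 4 UMIs) and cluster 10 (1.72, 1 UMI) it lay under the 5.57 CPM that free RNA could give, a bound set from Y-linked UMIs in cells with Xist. The other cluster levels of the 10 genes lay above their bounds, apart from Pgf in cluster 10.

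Pgf, the VEGFR1 ligand, was at 52.9 CPM in cluster 1, 51.9 in cluster 5, 47.7 in cluster 6 and 47.5 in cluster 9. It was at 26.8 in cluster 7 and between 11.96 and 16.95 in the FB4-like, SMC-like, 2 and 4 clusters. Cluster 10 had 0 Pgf UMIs of 581385, which allows up to 5.16 CPM. The clusters rich in Pgf were thus not those rich in Vegfc, and cluster 1 exceeded cluster 2 by 3.72 times (3.03 to 4.58) and cluster 4 by 3.31 times (2.69 to 4.10). As a description over the 10 clusters, which share 1 library, the Pearson correlation of log2 levels was -0.80 between Pgf and Vegfc, -0.90 between Pgf and Ccbe1, and 0.84 between Vegfc and Ccbe1.

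Vegfa, the angiogenic ligand, was at 58.5 CPM in cluster 10 (40.5 to 81.7) and 26.8 in cluster 7, and lowest in cluster 2 at 4.56. Cluster 2 therefore held the second highest Vegfc with the lowest Vegfa, whereas cluster 10 had both ligands high. The Vegfa level of cluster 10 was uneven between the columns, 39.9 in M and 75.3 in F. In the 67 cells gated on vFB3 markers alone, Vegfa was at 30.9 CPM (19.8 to 45.9). The ratio of its highest cluster over other cells was 5.17, and from 2.67 to 8.56 in 11 other settings. Vegfb, whose product binds the same receptor as that of Pgf, had its own order, with 67.8 in the SMC-like cluster (50.5 to 89.1), 55.2 in cluster 7, 42.02 in cluster 2 and 39.6 in cluster 10. It was lowest in the FB4-like cluster at 15.3, which was 0.419 times the other cells (0.348 to 0.501).

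The share of cells with UMIs of both Vegfc and Ccbe1 was counted after each cell had been thinned at random to 5000 UMIs, so that deep and shallow cells compare. In all, 113 of 4014 cells held both (2.82%, 2.33 to 3.38). In cluster 10 the share was 12 of 44 cells (27.3%, 14.96 to 42.8), in cluster 4 it was 46 of 639 (7.20%, 5.32 to 9.49), in the SMC-like cluster 4 of 75 (5.33%) and in cluster 2 it was 26 of 716 (3.63%, 2.39 to 5.28). No other cluster passed 2.08%. At full depth 378 of 4108 cells (9.20%) held both, 30 of the 45 cells of cluster 10 among them. By number of cells, however, clusters 4 and 2 gave 149 and 92 of the 378.

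With the convertases cluster 10 did not stand first, though its interval overlapped those of clusters 2 and 4. Vegfc with Furin or Pcsk5 was found in 41.3% of thinned cells in cluster 4 (37.5 to 45.2), 36.7% in cluster 2 (33.2 to 40.4) and 22.7% in cluster 10 (11.5 to 37.8), against 21.3% in the library. Vegfc with either protease was found in 57 cells (1.42%), 21 of them in cluster 4 and 16 in cluster 2. In cluster 10 it was 0 of 44 cells, which allows a share of up to 6.82% and is no sign of absence, since 7 of its 45 cells held the pair at full depth. Vegfc, Ccbe1 and a convertase met in 67 thinned cells, 35 of them in cluster 4 (5.48%, 3.84 to 7.54) and 4 in cluster 10 (9.09%, 2.53 to 21.7).

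A cell with ligand, scaffold, protease and convertase together was rare in these reads. At full depth 47 of 4108 cells (1.14%, 0.842 to 1.52) held a UMI of each role, 26 in cluster 4, 8 in cluster 2, 6 in cluster 5, 4 in cluster 10, 2 in the FB4-like cluster and 1 in cluster 6. After thinning 3 cells remained. With Adamts3 as the protease and Ccbe1 and Vegfc beside it, 14 cells were found at full depth. The number is bounded by the depth of the sparse protease genes, and free RNA can also give a cell single UMIs (up to 12.1 CPM of Vegfc and 18.7 CPM of Pcsk5), so it is neither a lower nor an upper limit.

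**Figure D2:**
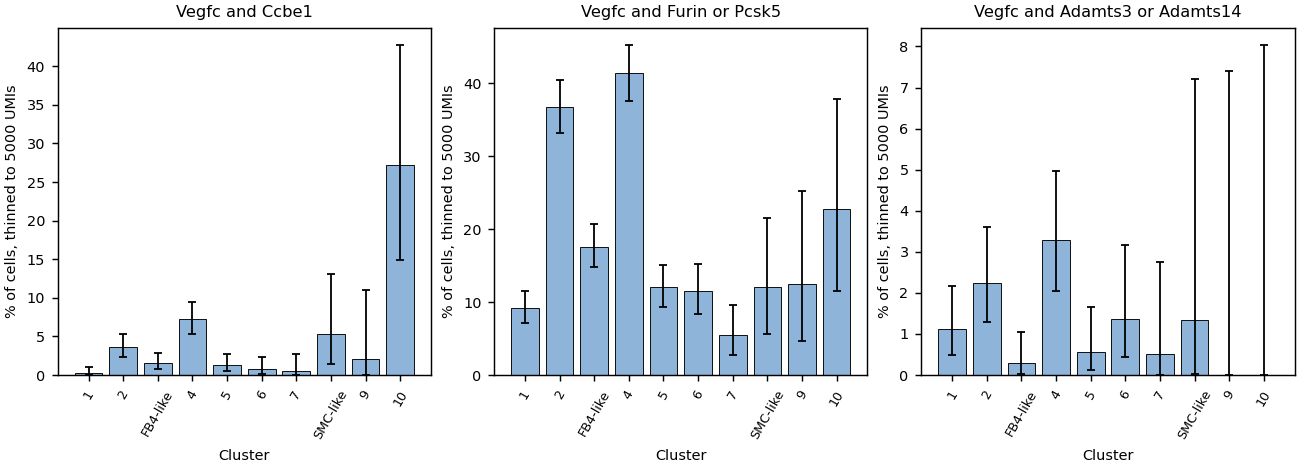
Share of cells in each cluster, in percent after thinning to 5000 UMIs, with UMIs of Vegfc together with Ccbe1, a convertase or a protease. Bars are shares and lines exact 95% binomial intervals. Cluster 10 stands highest for Ccbe1 at 27.3% and cluster 4 for the convertases at 41.3%.

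Within clusters, cells with a Vegfc UMI (2062) were set against those without (2046), with the cluster as stratum. The 9 partners had a median ratio of 0.992 against 0.995 over 11466 genes, with members on both sides. Of the 9, 1 stood at a ratio of 5 to 4 or more (Vegfd), as were 4.81% of genes, and 1 at 0.8 or less (Pgf), as were 4.92%. Furin (0.997, 0.884 to 1.12) and Pcsk5 (0.992, 0.945 to 1.04) were close to 1 with narrow intervals. Adamts3 (0.990, 0.652 to 1.504) and Adamts14 (1.19, 0.928 to 1.515) had wider ones that held 1.

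Ccbe1 was 1.23 times as high in Vegfc+ cells of the same cluster (1.03 to 1.47), compared with 1.94 times (1.65 to 2.27) when clusters were ignored. By cluster the ratio was 1.83 in cluster 5 (1.09 to 3.06), 3.47 in cluster 6 (1.36 to 9.54), 1.497 in the FB4-like cluster (1.003 to 2.25) and 0.837 in cluster 4 (0.598 to 1.19), where the most cells held both. Whether the clusters differ in this ratio was not tested. Vegfc+ cells were deeper than others, and with Vegfc+ cells set after thinning the ratio was 1.07 (0.919 to 1.26). Its interval held 1 in 8 of 13 other settings, so a difference of Ccbe1 inside clusters was not resolved at this depth.

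Pgf pointed the other way. It was at 19.5 CPM in Vegfc+ cells and 41.4 in Vegfc- cells, and the ratio within clusters was 0.704 (0.623 to 0.795), between 0.471 and 0.789 in 13 other settings. It was below 1 in each of the 9 clusters with Pgf UMIs. The interval left 1 in 4 of them, cluster 7 (0.183, 0.0484 to 0.493), cluster 4 (0.489, 0.325 to 0.751), cluster 6 (0.641, 0.443 to 0.910) and cluster 5 (0.775, 0.598 to 0.997), and held 1 in the other 5, among them cluster 1 (0.863, 0.679 to 1.09), cluster 2 (0.773, 0.472 to 1.34) and the FB4-like cluster (0.716, 0.505 to 1.01). By the number of Vegfc UMIs in the cell, Pgf was at 41.4, 27.7, 22.1, 13.3 and 9.64 CPM in cells with 0, 1, 2, 3 to 4, and 5 or more. This order was the same without cluster 10 (41.5, 27.8, 22.2, 13.5 and 10.4). Ccbe1 went from 10.1 to 25.3 over the same steps, or to 19.8 without cluster 10. Pcsk5 was at 186, 200, 194, 173 and 167, with 175 in the last group without cluster 10. These groups pool all clusters, which themselves differ in Vegfc and in Pgf (52.9 CPM in cluster 1 and 14.2 in cluster 2), so they mix differences between clusters with the ratio of 0.704 within them. Median depth also differed, from 9852 UMIs a cell in the first group to 14107 in the last, and its part in these orders was not tested.

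**Figure D3:**
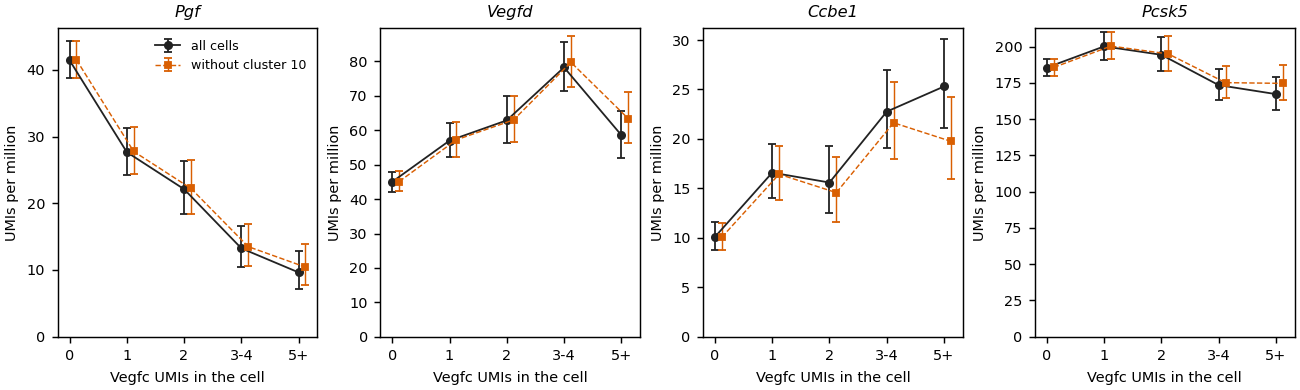
Level of Pgf, Vegfd, Ccbe1 and Pcsk5 in CPM (axes start at 0) in cells grouped by their number of Vegfc UMIs, with 95% Poisson intervals, over all clusters and without cluster 10. Pgf is highest at 41.4 in cells without Vegfc and lowest at 9.64 in those with 5 or more.

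Vegfd was higher in Vegfc+ cells, by 1.55 times within clusters (1.42 to 1.70). Among the clusters with over 100 cells the interval left 1 in the FB4-like cluster alone, where Vegfd was at 190 CPM in 313 Vegfc+ cells and 97.9 in 381 Vegfc- cells, a ratio of 1.94 (1.72 to 2.18). It was 1.83 (1.497 to 2.25) in the M and 1.99 (1.72 to 2.31) in the F columns, and 1.53 (1.31 to 1.80) among cells with 8000 to 14000 UMIs. In clusters 1, 2, 4, 5, 6 and 7 the intervals held 1. Of the smaller clusters, it left 1 in cluster 9 (15.4, 2.19 to 668), on 10 UMIs in 23 Vegfc+ and 1 in 46 Vegfc- cells. It held 1 in the SMC-like cluster (0.273, 0.00554 to 2.76), and cluster 10 had 1 Vegfd UMI. With the cells split by Vegfd instead, Vegfc was higher in Vegfd+ cells of the FB4-like cluster (2.09, 1.72 to 2.56), of cluster 5 (1.49, 1.15 to 1.93) and of cluster 4 (1.13, 1.02 to 1.251). After thinning, 98 of 683 FB4-like cells (14.3%, 11.8 to 17.2) held both lymphatic ligands, against 6.53% of the library.

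The FB4-like cluster itself was uneven. At the finer resolution it split into 520 and 173 cells of like mitochondrial share (4.21% and 4.25%) with Grem1 at 809 and 808 CPM. They differed in other FB4 markers, with Ackr4 at 663 CPM (630.0 to 697) in the smaller and 519 (501 to 537) in the larger part. The smaller part had 278 CPM of Vegfd (257 to 301) and 156 of Vegfc (141 to 173), the larger 91.1 (83.8 to 98.9) and 47.5 (42.3 to 53.2). Ccbe1 was at 22.3 (16.6 to 29.3) in the smaller and 8.72 (6.57 to 11.3) in the larger part, and Pgf at 10.0 (6.36 to 15.1) and 19.5 (16.2 to 23.3). Cilp was at 86.0 CPM in the smaller and 325 in the larger. Within the parts the ratio of Vegfd between Vegfc+ and Vegfc- cells came down to 1.17 (0.956 to 1.45) in the smaller and 1.43 (1.21 to 1.69) in the larger.

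**Figure D4:**
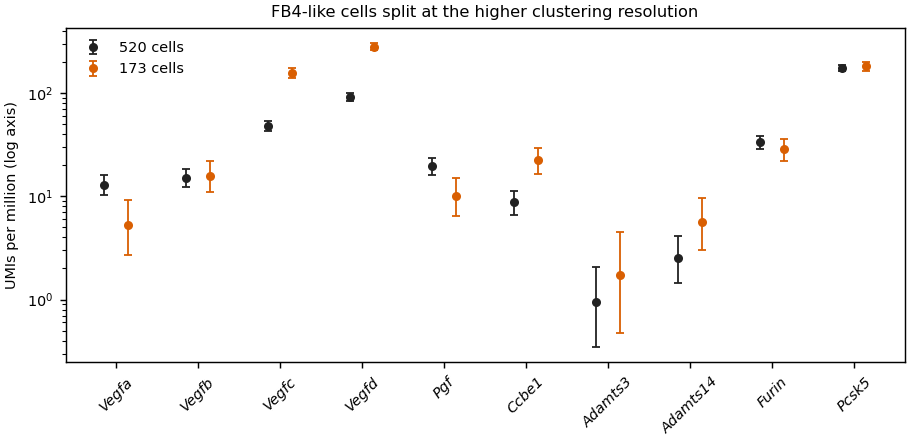
Level of the 10 genes in CPM (log axis) in the parts into which FB4-like cells split at the higher resolution, with 95% Poisson intervals. The part of 173 cells lies above the part of 520 for Vegfc, Vegfd and Ccbe1 and below it for Vegfa and Pgf.

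Seen from the side of Vegfd, 1208 cells with and 2900 without a UMI were compared in the same way. Vegfc was 1.13 times as high in Vegfd+ cells (1.06 to 1.20), a smaller ratio than the 1.55 of Vegfd between Vegfc+ and Vegfc- cells, and its interval held 1 in 2 of 5 other settings. Ccbe1 was 1.53 times as high in Vegfd+ cells (1.30 to 1.81) and was the only 1 of 9 partners at a ratio of 5 to 4 or more, as were 3.89% of genes. The ratio was 1.88 in cluster 2 (1.29 to 2.72), 1.44 in cluster 4 (1.09 to 1.89) and 1.498 in the FB4-like cluster (0.958 to 2.41). Vegfa (0.602, 0.480 to 0.755), Pgf (0.744, 0.653 to 0.848) and Adamts3 (0.652, 0.401 to 1.06) were at 0.8 or less, as were 6.77% of genes, though the interval for Adamts3 held 1. In 5 other settings, chosen after seeing the data, Ccbe1 was between 1.31 and 1.75, with 1.31 (1.08 to 1.59) when Vegfd+ cells were set after thinning. Pgf was between 0.671 and 0.868 in these settings, and its interval held 1 in 2 of them. By cluster its interval left 1 in clusters 1 (0.736, 0.577 to 0.933) and 5 (0.748, 0.569 to 0.973) and the FB4-like cluster (0.613, 0.437 to 0.863), while in cluster 2 the ratio was 1.14 (0.740 to 1.73). Over all clusters as strata, Pgf was thus lower in cells with either lymphatic ligand. So was Vegfa, at 0.815 in Vegfc+ over Vegfc- cells (0.667 to 0.996), but there the interval held 1 in 10 of 13 other settings.

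**Figure D5:**
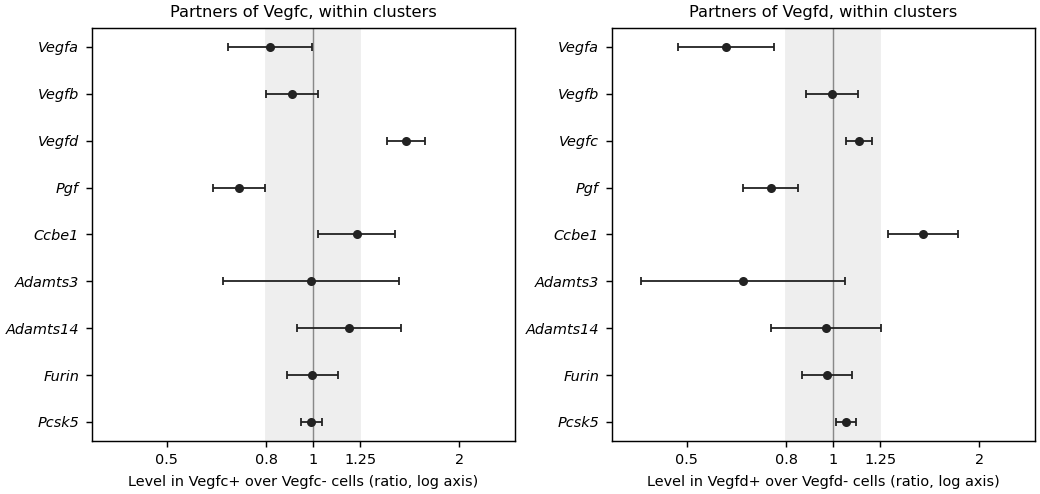
Ratio of the level of each partner in cells with over cells without a UMI of Vegfc (left) or Vegfd (right), within clusters, on a log axis with 95% intervals. The grey band runs from 0.8 to a ratio of 5 to 4. Vegfd at 1.55 and Pgf at 0.704 leave the band on the left. On the right Ccbe1 at 1.53, Vegfa at 0.602, Adamts3 at 0.652 and Pgf at 0.744 do, though the interval of Adamts3 reaches 1.06.

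The receptors of these ligands were close to 0 in these cells, from which the authors had removed the endothelium. Flt1 (VEGFR1) had 11 UMIs, Kdr (VEGFR2) 35 and Flt4 (VEGFR3) 2 in the whole library. The coreceptor gene Nrp1 was at 207 CPM and highest in cluster 5 (320), within counting error of cluster 10 (1.03 times, 0.886 to 1.21). Nrp2, whose product binds VEGF-C, was at 126 CPM and highest in cluster 4 (183), within counting error of cluster 7 (1.04 times, 0.933 to 1.16). Of the genes for plasminogen activators, whose products make plasmin, a protease that cuts VEGF-C and VEGF-D, Plat was at 86.0 in cluster 7 and 5.31 in the SMC-like cluster, and Plau had 45 UMIs in all. Ctsd, whose product cathepsin D can also cut these ligands, lay between 158 in the SMC-like and 262 in the FB4-like cluster.

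Genes with a closely similar pattern over the 10 clusters were found by Pearson correlation of log2 levels among 8183 genes with at least 500 UMIs. For Vegfc they included Samhd1 (0.97), Tspan4 (0.96) and Rras2 (0.92), for Vegfd Pianp (0.98) and Nkain4 (0.96), and for Pgf Gins4 (0.97) and Crem (0.93). Pcsk5 was nearest to Atrnl1 and Celf2 (0.98 each), Ccbe1 to Mapkapk2 (0.94) and Vegfa to Ahi1 (0.95). With 10 points, values of this size among so many genes describe likeness in this library and nothing more.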

How the data were processed

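Sorted PDGFRβ lineage cells were processed with the 10x Chromium 3' v3 kit. Per the labels, the authors used Cell Ranger 3.0.2 (mm10) and Seurat (3.0.1 in the processing notes). By their methods they kept cells with 1000 to 6000 genes and at most 7% mitochondrial UMIs, and removed immune and endothelial cells. The deposited values were natural log values, computed by the authors as ln(1 + UMIs per 10000 UMIs of the cell). All nonzero values gave whole UMI counts (tolerance 0.001), which were recovered and used. The M and F columns are a split by Xist (1983 and 2125 cells, 0 shared barcodes), not samples. The authors describe Xist as specific to females and split cells by it because of sex. The library may thus hold cells of both sexes.

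Clusters were rebuilt with Seurat 5.3.0 (2000 variable genes, 30 components, resolution 0.5, UMI count and mitochondrial percent regressed out), without the 10 genes, YAP/TAZ targets, other secreted factors and sex-linked genes among the variable genes. A cluster was named from a marker list if at least 3 markers counted (10% of cells, 2 times the median of the other clusters) and no marker of another list was among its 10 leading genes. After values were seen, a name was limited to the cluster with most markers of its list, which left cluster 2 without the name vFB3-like, and comparisons planned for a vFB3-like cluster were made on cluster 10. The members and lists were chosen with earlier results of these data known. The genes named were all 10 members, a fixed pathway list (Plg was not in the file), markers, and the nearest patterns by correlation.

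Levels have exact Poisson, ratios exact conditional binomial and shares Clopper-Pearson intervals (95%). Within-cluster ratios are Mantel-Haenszel ratios. Scripts were tested on simulated counts. Scrublet called 8 doublets, under its working range, so 1 alternative drops the top-scoring 4% (164 cells). A count of 0 allows 3 counts. Thinning left out 94 cells with under 5000 UMIs. Free RNA was bounded at 10.1% of a gene's library level. Python 3.11.15 and R 4.3.3 were used. Gene positions are from GENCODE M21. A gene among the nearest patterns and a marker are not reported here.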

Additional observations from a re-analysis of the deposited data

How the results depend on the processing

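In 17 planned and 1 added alternative (without cluster 10, chosen after seeing the data), no ratio of a gene's highest cluster over other cells and no ratio between Vegfc+ and Vegfc- cells reversed where its main interval left 1. Ratios whose main interval held 1 were not counted, and of these Furin came down to 0.973 and Adamts14 by Vegfc to 0.939. The highest clusters were picked from the same values. Cluster 10 kept its 45 cells and UMIs at resolutions 0.2 and 1.0, with nothing regressed out and after integration of the M and F columns. These settings could not move its ratios over other cells. None of the 4 ratios rerun by Vegfd (Ccbe1, Vegfa, Vegfc and Pgf) reversed in 5 settings added after seeing the data. The count of genes highest in cluster 10 was 5 in place of 3 in the F columns. Vegfd in the FB4-like cluster over other cells was 4.02, but 1.85 at resolution 1.0 and 1.6 with at most 5% mitochondrial UMIs, where the matched cluster held only part of those cells, 3.71 in cells with 8000 to 14000 UMIs and 4.59 with the free RNA bound subtracted. Ccbe1 in cluster 10 over other cells was 6.38, and 3.14 by the marker gate, of whose 67 cells 32 were in cluster 10 and 24 in cluster 6. The share with Vegfc and Ccbe1 was 2.16% in the M and 3.42% in the F columns, 0.828% after thinning to 2000 UMIs and 9.2% without thinning. Ccbe1 in Vegfc+ over Vegfc- cells was 1.94 without strata and otherwise 1.07 to 1.27. Vegfd in Vegfc+ over Vegfc- cells was 1.23 to 1.86. The comparisons of Vegfd inside the FB4-like cluster were also chosen after seeing the data. No paired analysis was possible because 1 library was analysed. With 1 library, the spread between animals is unknown, cluster 10 rests on 45 cells and Adamts3 on 114 UMIs.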
